A study of Homo sapiens with 10 samples.

Results

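The 10 genes described here encode the transcription factor NRF2 (gene NFE2L2), the quinone reductase NQO1 and the enzymes and carriers of the glutathione and thioredoxin systems: GCLC, GCLM, GSTP1, GPX1, GPX4, TXN, TXNRD1 and PRDX1. They were chosen by name, with earlier results of these data known, and 10 of 10 had exactly 1 row among the 20591 genes of the deposited table. The table holds bulk RNA sequencing of 4 established human blood cancer lines and of 6 mixtures made from them. HL60 came from an acute myeloid leukaemia with promyelocytic features and THP1 from an acute monocytic leukaemia. K562 came from a chronic myeloid leukaemia with erythroid features, and SUDHL4 from a germinal-centre lymphoma of B cells. All 10 libraries were labelled wild type, untreated and day 0, and every group holds 1 library; the proportions in mixtures 1 to 6 are not in the labels. No spread between replicates could be measured, so differences have no replicate check and no p-value is given. The labels do not say which library kit each library used. A difference of kit between the pure lines, if there was any, could not be told apart from a difference between the lines.

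NRF2 is held low by KEAP1, which hands it to a ubiquitin ligase; when electrophiles or peroxides modify KEAP1, NRF2 accumulates and, paired with a small MAF protein, activates genes that carry an antioxidant response element. Its classical targets include NQO1, both subunits of glutamate-cysteine ligase (GCLC and GCLM) and thioredoxin reductase. Glutathione peroxidases and peroxiredoxins remove peroxides, drawing on glutathione and on thioredoxin respectively, and leukaemia cells vary widely in how much of either system they express.

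Levels are in normalised CPM, reads per 1000000 after the authors' own scaling between libraries. The libraries held between 24985570 and 36607612 recovered reads, so each further read added between 0.0273 and 0.0396 normalised CPM. Brackets after a level give its exact 95% Poisson interval, which covers counting error only, since amplified reads can be copies of 1 molecule. The named lines carried their own markers: the 7 erythroid markers summed to 7645 in K562 and to at most 1.42 in the other lines, and the 6 B cell markers summed to 4880 in SUDHL4 and to at most 17.8 elsewhere. MPO was at 15645 in HL60, while the granule genes ELANE and PRTN3, also listed for HL60, were higher in THP1; 5 of the 6 monocyte markers were highest in THP1 and CYBB was highest in SUDHL4. The 3 measured T cell markers summed to at most 4.83 in any line, and the stromal and epithelial markers summed to 139 in K562 (EPCAM and COL1A2) and to at most 2.54 elsewhere.

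Before the levels, the start regions of 5 of the genes are shown, because GCLM and NQO1 shared a pattern across the lines, TXNRD1 and GSTP1 were also highest in K562, and GPX1 had 0 reads there. Each sequence runs 5′ to 3′ on the strand of its gene, from 250 bases before to 50 bases after a RefSeq start in GRCh38.p14. Capitals mark the core of the antioxidant response element, written TGACNNNGC and searched on both strands.
GCLM, chr1:93909381-93909680, minus strand: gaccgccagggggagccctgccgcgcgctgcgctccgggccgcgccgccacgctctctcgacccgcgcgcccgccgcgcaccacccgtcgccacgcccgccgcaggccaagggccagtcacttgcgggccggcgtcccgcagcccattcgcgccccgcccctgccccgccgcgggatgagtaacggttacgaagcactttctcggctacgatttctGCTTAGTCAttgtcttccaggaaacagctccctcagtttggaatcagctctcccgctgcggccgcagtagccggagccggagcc
NQO1, chr16:69726511-69726810, minus strand: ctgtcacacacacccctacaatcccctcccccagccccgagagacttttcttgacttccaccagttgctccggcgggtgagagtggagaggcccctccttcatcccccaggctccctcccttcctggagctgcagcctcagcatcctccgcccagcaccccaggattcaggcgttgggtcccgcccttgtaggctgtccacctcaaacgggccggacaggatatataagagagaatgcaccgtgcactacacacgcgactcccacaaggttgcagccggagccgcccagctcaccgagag
TXNRD1 first start, chr12:104215529-104215828, plus strand: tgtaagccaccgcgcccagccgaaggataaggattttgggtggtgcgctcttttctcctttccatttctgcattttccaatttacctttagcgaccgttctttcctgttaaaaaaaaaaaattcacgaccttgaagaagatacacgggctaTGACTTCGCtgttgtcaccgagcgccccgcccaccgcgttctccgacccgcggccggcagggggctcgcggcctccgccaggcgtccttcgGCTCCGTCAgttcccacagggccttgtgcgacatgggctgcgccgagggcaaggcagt
TXNRD1 later start, chr12:104286782-104287081, plus strand: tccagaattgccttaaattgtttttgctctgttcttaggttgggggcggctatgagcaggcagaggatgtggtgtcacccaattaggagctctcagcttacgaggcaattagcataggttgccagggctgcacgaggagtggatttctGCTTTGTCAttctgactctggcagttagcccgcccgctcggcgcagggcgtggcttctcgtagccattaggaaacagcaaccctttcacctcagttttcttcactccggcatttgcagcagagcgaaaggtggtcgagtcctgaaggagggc
GSTP1, chr11:67583562-67583861, plus strand: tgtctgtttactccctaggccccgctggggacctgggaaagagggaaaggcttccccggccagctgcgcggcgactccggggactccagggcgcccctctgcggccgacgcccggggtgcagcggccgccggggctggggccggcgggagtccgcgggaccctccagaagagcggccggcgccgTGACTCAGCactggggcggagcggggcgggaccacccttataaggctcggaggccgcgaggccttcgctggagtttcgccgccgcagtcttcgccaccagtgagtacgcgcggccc
GPX1, chr3:49358304-49358603, minus strand: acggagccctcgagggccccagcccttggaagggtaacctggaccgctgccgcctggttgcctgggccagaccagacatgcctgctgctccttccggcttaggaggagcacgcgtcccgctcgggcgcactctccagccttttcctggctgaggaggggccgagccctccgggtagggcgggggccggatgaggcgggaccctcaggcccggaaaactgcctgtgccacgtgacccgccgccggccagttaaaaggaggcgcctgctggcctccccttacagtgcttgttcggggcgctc
Of the 10 genes, 9 had a start region in the RefSeq table (13 regions in all, none of PRDX1). The core was held by 3 of the 9: GCLM, GSTP1 and TXNRD1. Every region with the core is shown. NFE2L2 was also highest in K562, and its regions, which are not shown, did not hold the core. Counted by region, 4 of the 13 held it, where 13.3% of all 35116 start regions of the same length did. The GCLM copy reads TGACTAAGC on the opposite strand, 34 to 26 bases before the start. The GSTP1 copy reads TGACTCAGC on the gene's strand, 66 to 58 bases before the start. It was the only one of the 13 regions to contain TGACTCA, the AP-1 site that this core overlaps, which 4.95% of all regions held. TXNRD1 had TGACTTCGC 99 to 91 bases before its first start, TGACGGAGC across that start on the opposite strand, and TGACAAAGC 102 to 94 bases before the later start. A match describes these letters and is not evidence of binding, and the windows of NQO1 and GPX1 without a match say nothing of elements elsewhere.

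NFE2L2 (chromosome 2, 177227595 to 177392697 in GRCh38) varied little. It stood at 149 in K562 (145 to 153), 109.6 in HL60 (106 to 113), 101 in THP1 (97.4 to 104) and 78.3 in SUDHL4 (75.0 to 81.7). K562 was the highest line, 1.90-fold above the lowest. The 6 mixtures lay between 97.7 and 116 (median 107.5), inside the range of the lines. The order of HL60 and THP1 rested on the scaling: THP1 was above HL60 under the 3 others tried, which set the libraries equal on total reads, on a median ratio over genes or on 11 reference genes. With the reference genes set equal, HL60 (87.9) rather than SUDHL4 (90.6) was the lowest line.

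NQO1, which reduces quinones by transferring a pair of electrons at once, differed far more than its regulator. Its level was 107 in K562 (104 to 110.4), 24.2 in THP1 (22.5 to 25.9), 16.4 in HL60 (15.02 to 17.96) and 4.53 in SUDHL4 (3.77 to 5.41), on chromosome 16 from 69706996 to 69726951. No neighbours in this order had overlapping intervals, and K562 stood 4.42-fold above THP1 and 23.6-fold above SUDHL4. The mixtures followed with 36.6, 39.3, 45.2, 14.8, 67.4 and 61.8 in mixtures 1 to 6. Mixture 4, which held almost no K562 RNA by the estimate given below, was the lowest, and mixtures 5 and 6, with the most K562 RNA, were the highest.

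Glutathione synthesis starts with glutamate-cysteine ligase, whose catalytic subunit GCLC makes the peptide bond and whose modifier subunit GCLM raises the affinity for glutamate. The subunits ran in different directions across the lines. GCLM (chromosome 1, 93885205 to 93909456) was at 183 in K562 (179 to 187), 33.5 in HL60 (31.5 to 35.6), 28.8 in THP1 (27.0 to 30.7) and 22.8 in SUDHL4 (21.0 to 24.6). K562 thus lay 5.46-fold above the next line, while the other 3 lines were close together and the order of HL60 and THP1 turned under 2 of the 4 scalings. GCLC (chromosome 6, 53497341 to 53616970) was at 35.6 in SUDHL4 (33.4 to 37.9), 35.5 in HL60 (33.4 to 37.8), 18.2 in K562 (16.8 to 19.7) and 12.4 in THP1 (11.2 to 13.7). As deposited, SUDHL4 and HL60 had overlapping intervals. Under the other 3 scalings SUDHL4 was the higher, by the most with the reference genes set equal (41.2 against 28.5). K562 thus had the highest level of the modifier and less than SUDHL4 and HL60 of the catalytic subunit.

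Per kilobase of exon the GCLM level was 13.1 times the GCLC level in K562, 3.01 times in THP1, 1.23 times in HL60 and 0.832 times in SUDHL4. This ratio does not depend on the scaling of a library. In mixtures 1 to 6 it was 2.75, 2.55, 5.03, 1.39, 6.45 and 5.61. It was lowest in mixture 4 and highest in mixtures 3, 5 and 6, the 3 mixtures with the most K562 RNA. In the same mixtures GCLM was at 50.7, 45.6, 78.0, 29.97, 82.4 and 90.6, and GCLC at 23.9, 23.2, 20.2, 28.1, 16.6 and 20.99.

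Among the enzymes that use glutathione, GSTP1, the pi-class transferase that conjugates it to electrophiles, was abundant everywhere. It stood at 812 in K562 (803 to 821), 669.8 in SUDHL4 (660.1 to 679.5), 446 in THP1 (439 to 453) and 445 in HL60 (437 to 453), on chromosome 11 from 67583595 to 67586656. K562 was 1.82-fold above HL60. THP1 and HL60 had overlapping intervals as deposited, while THP1 was above HL60 under the other 3 scalings (452 against 402, 519 against 400.1 and 516 against 357). The mixtures ran from 516 (mixture 3) through a median of 692 to 868 (mixture 5), and mixtures 5 and 6 (816) exceeded every pure line. With the reference genes set equal, mixture 6 (823) fell short of K562 (846).

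GPX1, the cytosolic selenoenzyme that reduces hydrogen peroxide with glutathione, had the widest range of the 10 genes. It was at 481 in THP1 (473 to 488), 89.5 in HL60 (86.1 to 92.9) and 19.4 in SUDHL4 (17.8 to 21.2), on chromosome 3 from 49357171 to 49358600, where GENCODE annotates it as a polymorphic pseudogene. In K562 it had 0 reads. Against a limit of 3 reads, which is 0.0988 normalised CPM in that library, GPX1 was at least 4866-fold higher in THP1, at least 905-fold higher in HL60 and at least 197-fold higher in SUDHL4. The mixtures had 173, 244, 149, 142, 221 and 170.1.

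Of 4 flanking genes looked up after the GPX1 values were seen, 3 were expressed in K562. RHOA, which encodes a small GTPase of the cytoskeleton, was at 642 in K562 against 885 to 1234 in the other lines, USP4 was at 45.1 against 73.8 to 151, and TCTA was at 7.10 against 11.5 to 19.3. The fourth, AMT, had 0 reads in K562 and HL60 and at most 0.0764 in SUDHL4 and THP1. The processed pseudogene GPX1P1 had the same order of lines as GPX1, at 13.2 in THP1, 0.486 in HL60, 0.202 in SUDHL4 and 0 reads in K562, so reads shared between the 2 copies could have been split. GPX1 was not alone in K562 in this respect, but such genes were few. Of the 8506 genes with at least 5 normalised CPM in 3 or more lines, 54, GPX1 included, had 0 reads in K562 and at least 5 in each other line. THP1 was 24.7-fold above SUDHL4 and 5.38-fold above HL60.

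GPX4, the selenoenzyme that reduces lipid hydroperoxides and is the main guard against ferroptosis, was by contrast even. It was at 211 in THP1 (206 to 216), 147 in HL60 (142 to 151), 134 in K562 (129.8 to 137) and 117 in SUDHL4 (113 to 121), on chromosome 19 from 1103926 to 1106791. The highest line was 1.81-fold above the lowest. With the reference genes set equal, HL60 (118) was lowest and SUDHL4 was at 135. Mixture 2, at 217, lay above every pure line as deposited but below THP1 under the other 3 scalings (203 against 214 with total reads set equal). The mixtures otherwise ran from 134 in mixture 3 to 202 in mixture 5. K562, with no GPX1 read, thus had a GPX4 level within the range of the other lines.

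The thioredoxin system passes electrons from NADPH through the selenoenzyme TXNRD1 to thioredoxin (TXN) and on to peroxiredoxins such as PRDX1. TXN was at 340.3 in HL60 (334 to 347), 299 in THP1 (293 to 305), 279 in K562 (274 to 285) and 172 in SUDHL4 (167 to 177), on chromosome 9 from 110243811 to 110256640. SUDHL4 was lowest under all 4 scalings, 1.98-fold below HL60 as deposited, while HL60 was highest under 2 scalings and THP1 under the other 2. The mixtures had 294, 432, 286, 321, 352 and 328, and both mixture 2 and mixture 5 exceeded every pure line under all 4 scalings.

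TXNRD1 (chromosome 12, 104215779 to 104350305) was at 369 in K562 (362 to 375), 278 in HL60 (273 to 285), 182 in SUDHL4 (177 to 187) and 95.2 in THP1 (91.9 to 98.6). PRDX1 (chromosome 1, 45511036 to 45523047) was at 892 in K562 (882 to 902), 642 in SUDHL4 (633 to 652), 476 in HL60 (468 to 484) and 306 in THP1 (300.4 to 312). K562 was first and THP1 last for both genes under all 4 scalings, 3.87-fold apart for TXNRD1 and 2.91-fold apart for PRDX1. The mixtures lay inside the range of the lines, between 153 and 237 for TXNRD1 and between 499 and 696 for PRDX1. THP1 thus had the most GPX1 and the least of both TXNRD1 and PRDX1.

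**Figure D1:**
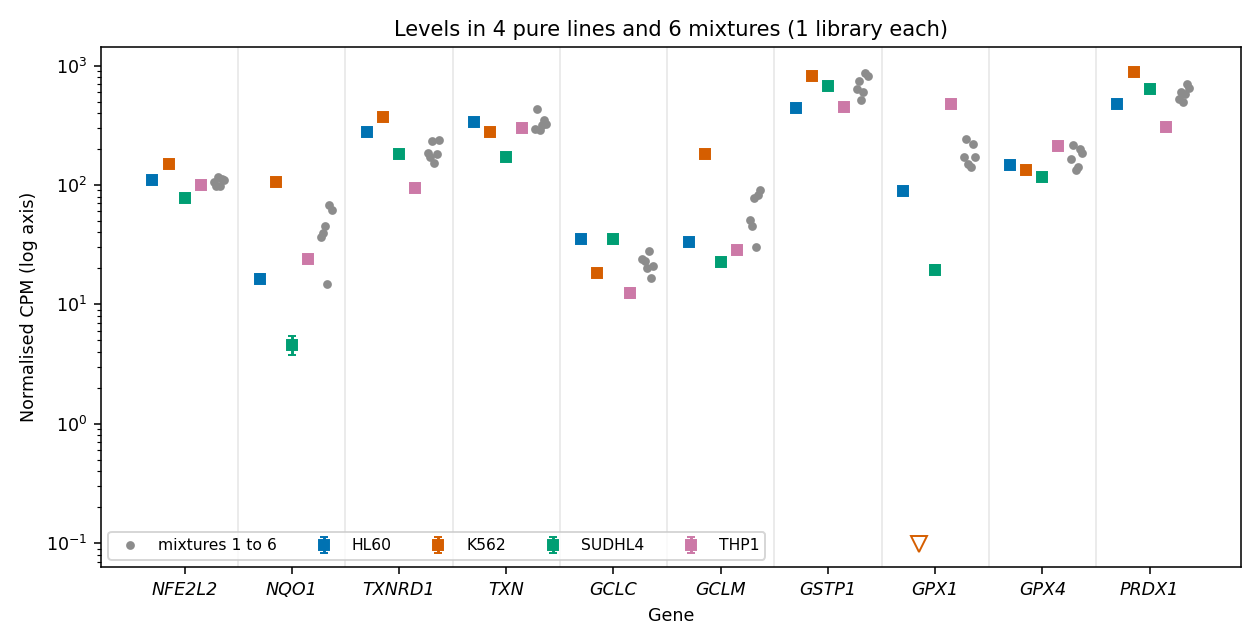
Level of each of the 10 genes in normalised CPM (log axis) in the 4 pure lines (coloured squares, bars are exact 95% Poisson intervals and mostly smaller than the symbol) and in mixtures 1 to 6 (grey points), 1 library each. K562 stands apart for NQO1 (107) and GCLM (183), and the open triangle marks GPX1 in K562, which had 0 reads, drawn at the level of 3 reads (0.0988).

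Between genes, levels were compared per kilobase of exon. In K562 the order was GSTP1 (845 normalised CPM per kilobase), PRDX1 (712), TXN (322), GPX4 (108), TXNRD1 (73.1), GCLM (37.3), NQO1 (34.2), NFE2L2 (32.9) and GCLC (2.86). GPX1, with 0 reads there, was last. GSTP1, PRDX1, TXN, GPX4 and TXNRD1 thus stood above both ligase subunits, NQO1 and the regulator in that line.

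The calls were read against the whole table. Because the 10 genes were chosen with earlier results of these data known, the shares over all genes give a scale and no independent test. The call "high" was given to a line whose log2(level + 1) exceeded that of each of the other 3 by at least 1, that is 2-fold, at a level of 5 or more. The call "low" was its mirror image, with 5 or more in each of the others. In K562, 2 of the 10 were high, NQO1 and GCLM, where 9.22% of 11717 genes were. In THP1, GPX1 alone was high, where 8.44% of all genes were. HL60 and SUDHL4 had none of the 10 high, where 3.35% and 7.5% of all genes were, so 3 of 10 were high in a line against 28.5% of all genes. GPX1 was low in K562 and NQO1 in SUDHL4, where 6.11% and 7.02% of 8506 genes were low; none was low in HL60 (2.83%) or THP1 (6.11%). In all, 2 of 10 were low in a line against 22.1% of those genes. NQO1, GCLM and GPX1 spanned 4-fold or more over the lines, 3 of 10 where 42.1% of all genes did. The median range over the lines was 1.49 log2 units for the 10 genes and 1.69 for all genes.

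K562 was the highest line for 6 of 10 genes (NFE2L2, NQO1, GCLM, GSTP1, TXNRD1 and PRDX1) under all 4 scalings, where it was highest for 30.2% of all genes as deposited. As deposited, THP1 was highest for GPX1 and GPX4 (20.7% of all genes), HL60 for TXN (24.8%) and SUDHL4 for GCLC (24.3%). SUDHL4 was lowest for 5 of 10 (25.8%), THP1 for 3 (29.8%), and K562 (21.6%) and HL60 (15.9%) for 1 each, also as deposited. With the reference genes set equal, HL60 rather than SUDHL4 was lowest for NFE2L2 and GPX4, and THP1 rather than HL60 was highest for TXN. The median difference between K562 and the mean of the other lines was 0.65 log2 units for the 10 genes and 0.07 for all genes. In SUDHL4 these medians were −0.52 and −0.10, in THP1 −0.29 and −0.16 and in HL60 0.02 and 0.08. The other 3 scalings moved whole libraries by −0.32 to −0.15 log2 units in HL60, −0.10 to 0.06 in K562, −0.02 to 0.21 in SUDHL4 and 0.02 to 0.22 in THP1. Relative to the median of all genes, the 10 genes were 0.59 to 0.60 higher in K562 and 0.41 to 0.42 lower in SUDHL4 under each scaling. A scaling moves every gene of a library alike, so this difference could hardly change and the scalings are no check of it.

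Nearest patterns were sought for the 3 genes that spanned 4-fold, as the smallest mean absolute difference of centred log2(level + 1) over the 10 libraries. Those of NQO1 were FAM89A (0.18 log2 units) and FZD5 (0.18), a WNT receptor, both highest in K562, at 30.3 and 23.8, with THP1 next. Those of GCLM were ZFHX4 (0.10) and the uncharacterised LOC105372321 (0.13), at 5.18 and 5.41 in K562 and at 0 reads in the other lines. That closeness rests on the 1 added before the logarithm, since GCLM was at 22.8 to 33.5 in those lines, and it is no likeness in level or in fold. The gene nearest to GPX1 was S100A4, a calcium-binding protein gene, at 0.28 log2 units. Its levels were 554 in THP1, 99.3 in HL60, 27.0 in SUDHL4 and 1.82 in K562. LST1, a leukocyte gene of the class III HLA region, was next at 0.45, with 269 in THP1.

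The rest of the pathway was read from 9 lists of 158 genes, also chosen with earlier results of these data known. Of the 158, 143 were measured and 123 had at least 5 normalised CPM in a line. Of these 123, 18 were high in K562, 9 in THP1, 7 in HL60 and 6 in SUDHL4, where 9.22%, 8.44%, 3.35% and 7.5% of all genes were. Over the other scalings the K562 count ran from 15 to 21 and the HL60 count from 3 to 5. K562 was the highest line for 52 of the 123, and for 52 to 55 under the other scalings, where it was highest for 30.2% of all genes as deposited and for 27.0% to 33.4% under the others.

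Among genes that control NRF2, KEAP1 itself was even, at 91.7 in HL60, 83.3 in K562, 89.98 in SUDHL4 and 95.1 in THP1, and its ligase partner CUL3 was high in SUDHL4 (264 against 107 to 126). In K562, 3 of 15 genes were high as deposited, 2 with the median ratio and 4 of 16 with the reference genes set equal, where 9.22%, 7.97% and 9.39% of all genes were. The 3 were NFE2, the erythroid relative of NRF2 (249 against 90.2 in HL60, 51.6 in THP1 and 0 reads in SUDHL4), BACH1, a repressor that competes for the same element (111 against 45.8 in HL60), and the KEAP1-binding cargo adaptor SQSTM1 (269.6 against 133 in HL60). The B cell repressor BACH2 was high in SUDHL4 (62.4 against 9.42 in K562). Of the small MAF partners, MAFG was low in SUDHL4 (13.2 against 66.2 to 84.6) and MAFK was high in HL60 (38.0 against 12.5 in SUDHL4).

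Of 24 further genes in the list of NRF2 target enzymes, which also holds ferritin chains and transporters, 9 were high in K562 (8 to 10 over the scalings). Over all genes the share was 9.22% (7.97% to 10.2%). K562 was the highest line for 15 under all 4 scalings, where it was highest for 30.2% of all genes as deposited. The aldo-keto reductase AKR1C1 was at 136 in K562, 0.443 in THP1, 0.352 in HL60 and 0 reads in SUDHL4. Its close homologues AKR1C2 (34.0 in K562) and AKR1C3 (10.7) were also among the 9. The split of reads among the 3 is uncertain, so they may not be separate calls. Malic enzyme ME1, a source of NADPH, was at 74.5 in K562, 11.4 in HL60, 11.3 in THP1 and 0 reads in SUDHL4. The biliverdin reductase BLVRA was at 67.8 in K562, 25.7 in HL60, 28.5 in THP1 and 0.386 in SUDHL4. Other targets had other orders: the aldose reductase AKR1B1 was at 160 in SUDHL4 and 103 in THP1 but 4.48 in K562 and 0 reads in HL60, transketolase TKT was high in HL60 (1655 against 484 to 674, a call lost with the reference genes set equal), and haem oxygenase HMOX1 was high in THP1 at only 6.58. In SUDHL4, 4 genes of the list were low as deposited and 6 with the median ratio. As deposited, 7.02% of the 8506 genes with at least 5 in 3 or more lines were low there. Genes of the list below that limit could not be called low, so the 4 are no share of the 24.

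In glutathione synthesis and recycling, 3 of 18 genes were high in K562 (9.22% of all genes). These were the cystine importer SLC7A11 (55.95 against 17.9 in SUDHL4, 16.6 in HL60 and 4.54 in THP1) and the transsulfuration enzymes CTH (43.95 against 6.79 in HL60) and CBS (216 against 71.4 in SUDHL4). SLC7A11 and CTH, at 1.36, were also low in THP1 as deposited. GGT1, which breaks down extracellular glutathione, was at 105 in HL60 and 54.9 in THP1 against 6.31 in K562 and 7.69 in SUDHL4; it has close homologues. OPLAH, which recycles 5-oxoproline to glutamate, was at 27.0 in THP1 and 16.3 in K562.

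Among glutathione transferases other than GSTP1, 3 of 10 genes were high in THP1 under all 4 scalings, where 8.44% to 10.8% of all genes were: GSTM1, GSTM3 and MGST3. GSTM1, which has near-identical relatives that could share its reads, was at 47.0 in THP1 with 0 reads in the other 3 lines, and GSTM3 was at 81.6 in THP1 against 14.5 in HL60, 3.35 in K562 and 0 reads in SUDHL4. The microsomal transferase MGST1 was at 215 in HL60, 96.1 in THP1, 49.4 in K562 and 0 reads in SUDHL4. MGST3 was at 84.7 in THP1, 40.6 in K562, 21.1 in HL60 and 4.24 in SUDHL4. Of the other glutathione peroxidases, 1 of 3 measured reached 5: GPX7, at 48.9 in THP1 and 5.71 in SUDHL4, with 0 reads in HL60 and K562.

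In the wider thioredoxin and glutaredoxin list of 18, no gene was high in K562 as deposited (9.22% of all genes), and 1 was with total-read scaling or with the reference genes set equal. Glutaredoxin GLRX was at 79.9 in SUDHL4, 24.6 in HL60, 16.3 in THP1 and 2.19 in K562. The methionine sulfoxide reductases split, with MSRB3 at 53.2 in HL60, 11.3 in THP1 and 0 reads elsewhere, and MSRA at 37.4 in THP1. Nucleoredoxin NXN was high in THP1 at 15.4.

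PRDX2, the abundant peroxiredoxin of red cells, was low in HL60. It was at 7.26 there against 297 in K562, 296 in SUDHL4 and 138 in THP1. PRDX6 was high in K562 (832 against 249 to 308). Catalase CAT was at 476 in HL60, 473 in THP1, 210.4 in K562 and 76.0 in SUDHL4, where it was low. SOD1 was at 174 in THP1 against 369 to 435 in the other lines, and this low call was lost under the other 3 scalings.

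Of 16 genes for selenoproteins and their synthesis, none was high or low in K562 as deposited (9.22% and 6.11% of all genes); 1 was high there with total-read scaling and 1 low with the median ratio. The kinase PSTK, which acts on the selenocysteine tRNA, was at 11.4 in K562, 5.23 in SUDHL4, 2.93 in HL60 and 1.36 in THP1. SELENON was at 178 in THP1, 46.1 in HL60, 29.7 in K562 and 1.63 in SUDHL4, SELENOW was low in HL60 at 1.83 against 9.49 to 22.2, and SELENOH was at 19.97 in THP1 and 3.52 in K562. In the list for lipid peroxide defence, 2 of 12 were high in K562 (1 under 2 other scalings), near the 9.22% of all genes. These were the ubiquinone reductase AIFM2 (25.9 against 12.3 in SUDHL4 and 0.117 in HL60) and the iron exporter SLC40A1 (52.0 against 15.7 in THP1). ALOX5, the 5-lipoxygenase, was at 77.7 in SUDHL4 and 0.438 in K562, and GCH1, which starts tetrahydrobiopterin synthesis, was at 41.0 in SUDHL4 and 1.09 in HL60.

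**Figure D2:**
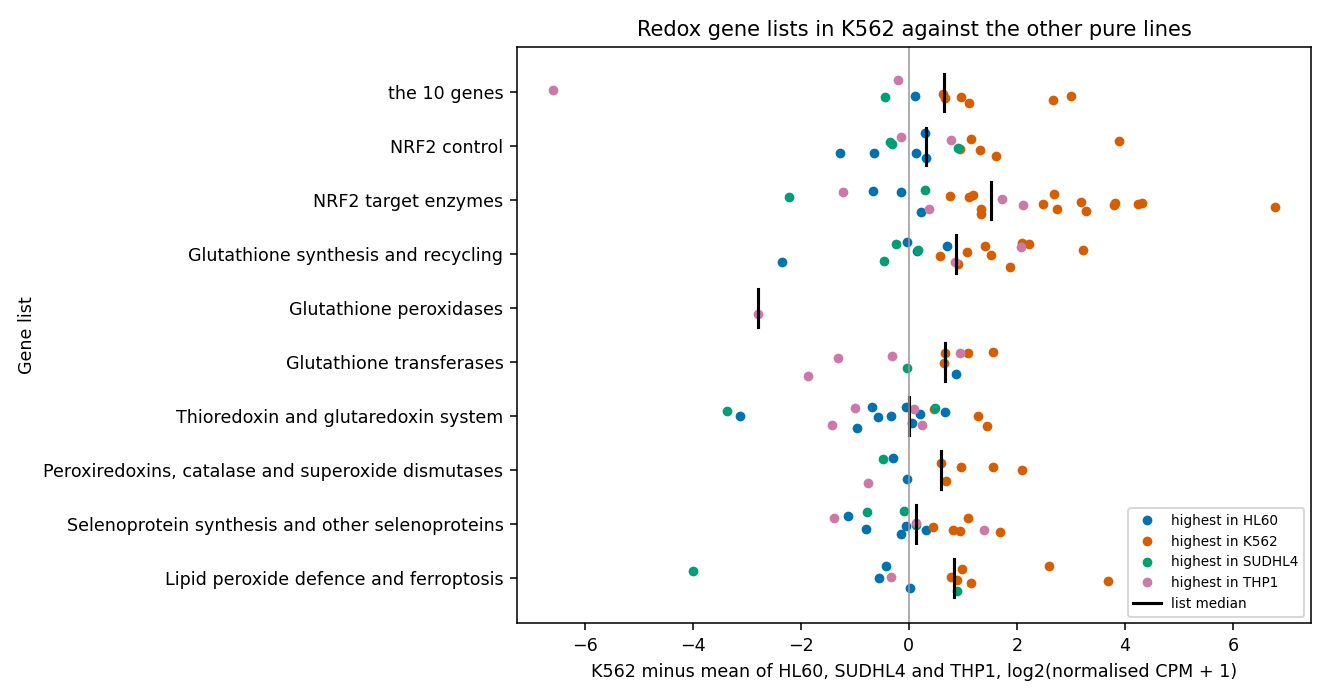
Difference between K562 and the mean of HL60, SUDHL4 and THP1, in log2(normalised CPM + 1), for each gene with at least 5 normalised CPM in a line (points, coloured by the line with the highest level) in the 10 genes and 9 further lists; black bars are list medians. The NRF2 target enzymes have a median of 1.53 and the 10 genes one of 0.65, and GPX1 lies far to the left at −6.59.

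The mixtures were then used to ask whether each gene's level followed from the 4 pure lines. Each line's RNA share came from a non-negative least squares fit to 100 signature genes a line, none of them among the 10 genes or the lists. K562 made up 22.6%, 20.3%, 39.5%, 0.0225%, 53.3% and 52.9% of mixtures 1 to 6, and THP1 28.9%, 24.0%, 35.2%, 31.3%, 34.6% and 27.8%. HL60 was the largest component of mixture 2 (48.97%) and SUDHL4 of mixture 4 (58.3%). In bulk RNA, fewer cells of a line and less RNA per cell cannot be told apart, so these are shares of RNA. A gene's predicted level is the sum of the lines' levels times their coefficients, and departures are in log2(level + 1).

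By this prediction the sources of the genes differed within a mixture. K562 would supply 86.4% of the NQO1 RNA and 88.4% of the GCLM RNA of mixture 5 but 53.0% of its GCLC RNA and none of its GPX1 RNA, of which THP1 would supply 98.4%. In mixture 4, almost without K562, THP1 would supply 63.3% of NQO1 and SUDHL4 51.4% of GCLM and 73.2% of GCLC. The observed NQO1 level was between 0.909 times (mixture 3) and 1.28 times (mixture 4) its prediction, and GCLC between 0.922 times (mixture 2) and 1.08 times (mixture 6). In the other 5 mixtures GCLM ran below its prediction, from 0.771 times in mixture 5 to 0.948 times in mixture 3, and in mixture 4 it was at 1.21 times.

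**Figure D3:**
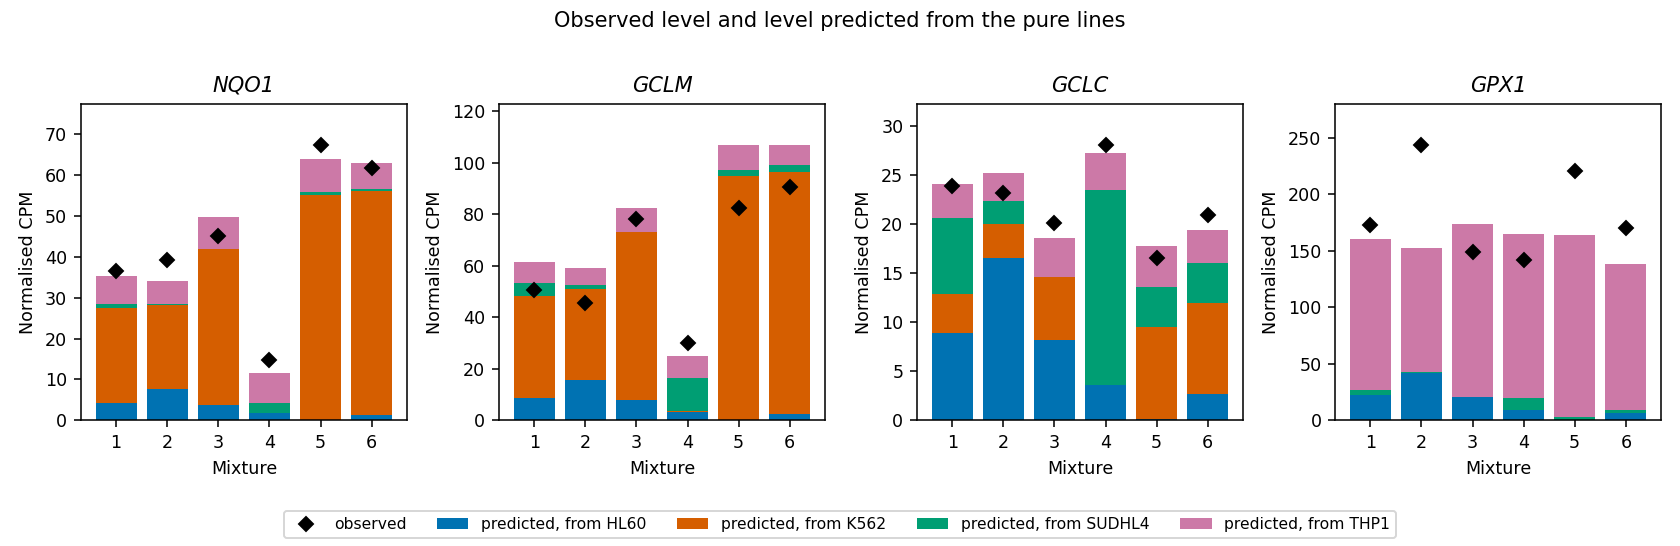
Level predicted from the pure lines (stacked bars, coloured by the line that would supply it) and observed level (black diamonds) in normalised CPM for NQO1, GCLM, GCLC and GPX1 in mixtures 1 to 6. K562 supplies most of the predicted NQO1 and GCLM where it is present, THP1 supplies most of the GPX1, and the GPX1 diamonds of mixture 2 (244) and mixture 5 (221) stand above their bars.

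Departures of at least 0.5 log2 units occurred in 5 of 60 gene and mixture pairs, where 6.44% of all such pairs departed, and in 4 of 10 genes in some mixture, where 23.2% of all genes did. In mixture 2, GPX1 (0.67), TXN (0.56), GSTP1 (0.55) and GPX4 (0.53) were above prediction, 4 of 10 where 6.6% of 11781 genes were above and 16.3% were off either way. TXN in mixture 4 (0.54) was the remaining pair, where 1.94% of genes were above and 3.21% off either way. None of the 10 was off in mixtures 1, 3, 5 and 6, where 2.01%, 0.857%, 11.2% and 5.04% of genes were off either way and 1.1%, 0.526%, 4.99% and 2.57% above. The mixtures that exceeded every pure line as deposited were those named above. They held 2 such genes in mixture 2 (TXN and GPX4, 6.93% of all genes), 2 in mixture 5 (TXN and GSTP1, 4.35%) and 1 in mixture 6 (GSTP1, 2.8%). Mixtures 1, 3 and 4 had none as deposited, where 0.891%, 0.407% and 3.58% of all genes did. With total reads set equal, TXN also exceeded the highest line, HL60 (307), in mixture 3 (315), mixture 4 (314) and mixture 6 (338). In mixture 5 the same 4 short genes were above prediction by less, GPX1 by 0.43, GSTP1 by 0.42, TXN by 0.41 and GPX4 by 0.39, while TXNRD1 was below it by −0.42 and GCLM by −0.37.

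The departures moved with transcript length. GSTP1, TXN, GPX1, GPX4 and PRDX1 have 869 to 1430 exon bases in GENCODE, within the shortest of 10 equal groups of genes, and TXNRD1, GCLM, NFE2L2 and GCLC have 4531 to 6377. Over 11626 genes, the Spearman correlation of departure with length was −0.59 in mixture 2, −0.51 in mixture 5, −0.39 in mixture 6, −0.36 in mixture 1, −0.27 in mixture 4 and 0.35 in mixture 3; genes are not independent and share their libraries. In mixture 2 the median departure was 0.37 in the shortest group and −0.35 in the longest. With each prediction moved by the median departure of its length group, an alternative chosen after the data were seen, 0 of 60 pairs were off, against 4.25% of all pairs. The largest departures that remained were −0.39 for GPX1 and 0.36 for TXN, both in mixture 4. The labels name 2 library kits, one for low-input total RNA and one for mRNA, without saying which library used which, pure lines included. The part of the kit in these departures was not tested.

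**Figure D4:**
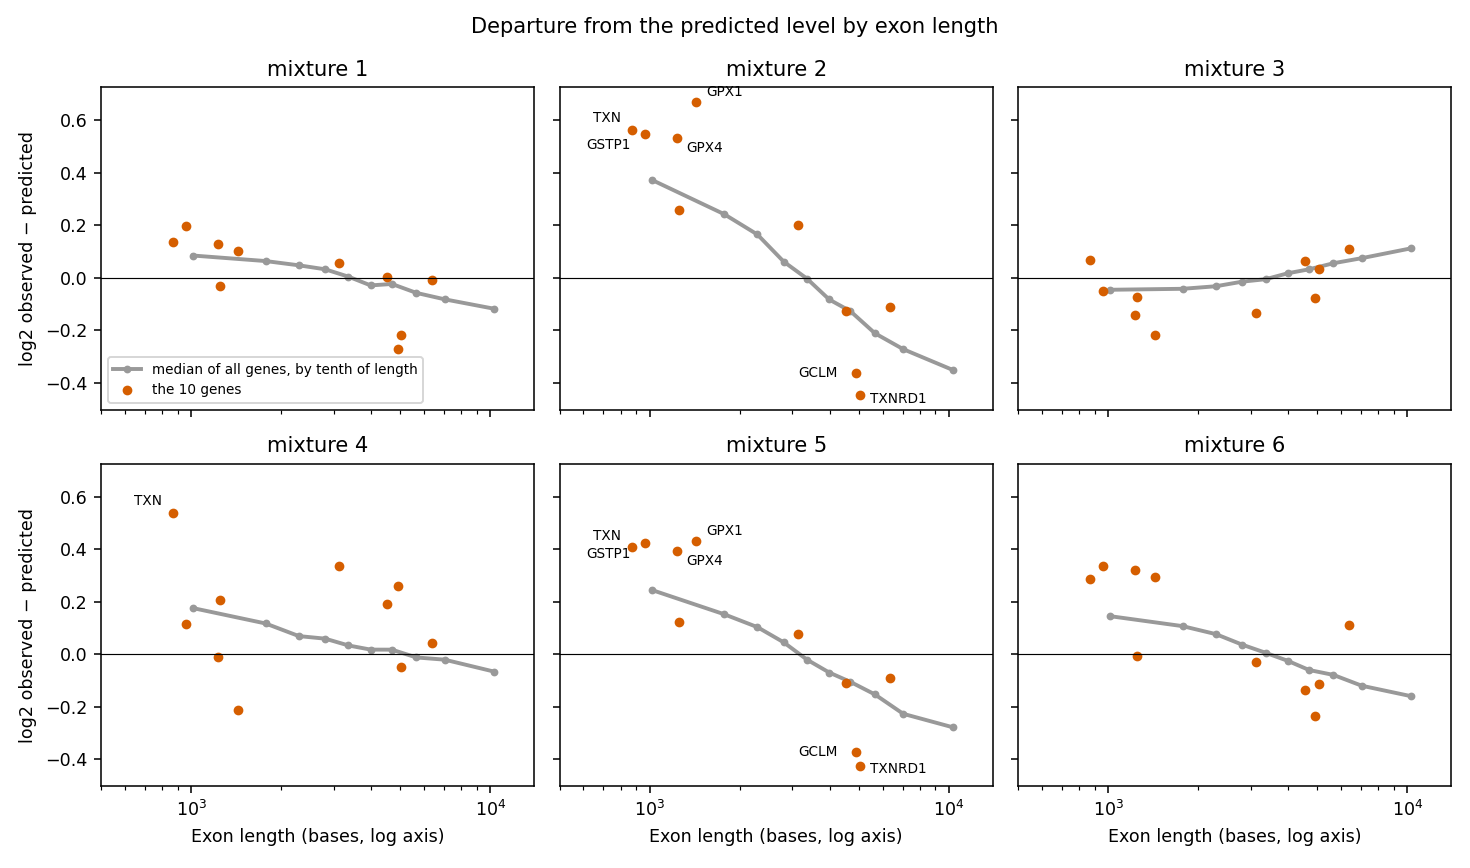
Observed minus predicted log2(normalised CPM + 1) against exon length (bases, log axis) for the 10 genes (orange points) in each mixture, with the median of all genes in each of 10 length groups drawn at its median length (grey). In mixtures 2 and 5 the short genes GPX1, TXN, GSTP1 and GPX4 lie above 0 and the long genes TXNRD1 and GCLM below, and the grey line falls with length; in mixture 3 it rises.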

How the data were processed

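Bulk RNA of 10 libraries was analysed. The submitters' processing notes name HISAT2, featureCounts and hg19; the annotation, the strand setting and the scaling between libraries are not named in the labels or notes. The authors deposited signal values on a CPM scale whose columns do not sum to 1000000. Every value above 0 was a whole number of reads plus 0.5, times a constant step for its column (100% of values, tolerance 0.01), so reads were recovered; with 1 library a group no count test could be run. Levels were compared on log2(value + 1), with a minimum level of 5. Shares came from non-negative least squares (scipy 1.17.1). The same fit was run on mixtures simulated as sums of the pure profiles with counting error. Those mixtures hold no shift by length, so they cannot show how far such a shift moved the shares. Other scalings used total reads, a median ratio or 11 reference genes. Exon lengths and gene positions are from GENCODE 29 (GRCh38), matched by Ensembl ID; start regions are from RefSeq (GRCh38.p14) by symbol. Named list genes were the up to 4 in each list with the widest range over the lines. KEAP1, CUL3, BACH1, SQSTM1, AKR1C2, AKR1C3, TKT, HMOX1, CBS, SRXN1, TXNDC5 and the genes flanking GPX1 were named after their values were seen. The 10 genes and the lists were chosen with earlier results of these data known.

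Exons of PRDX1 share 379 bases with MMACHC, those of NQO1 share 575 bases and those of NFE2L2 share 54 and 190 bases with genes on the opposite strand, and those of NFE2L2 share 489 with a gene on the same strand; without a stated strand setting such reads cannot be told apart.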

Additional observations from a re-analysis of the deposited data

How the results depend on the processing

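The counts of genes high in a line (3) and low in a line (2) and of those spanning 4-fold (3) were the same under the 3 other scalings, a pseudocount of 0.1 and a minimum level of 1. The low count became 0 at a minimum level of 20, which NQO1 in HL60 and GPX1 in SUDHL4 do not reach (18.9% of all genes tested were low). With a margin of 1.5-fold it was 5, where 41.3% of all genes tested were low, and with 4-fold it was 1 (8.7%). A range of 2-fold was spanned by 6 of the 10 genes, where 76.9% of all genes spanned it. Of 60 gene and mixture pairs, the 5 departures from prediction became 2 when signature values were not divided by their highest level (7.34% of all pairs). They became 2 when every gene at 5 or more was used (7.08%), and for neither was the cause tested. At a threshold of 1 there were 0 (0.454%), at 0.25 there were 21 (28.2%) and after the shift by length there were 0 (4.25%). The departures stayed at 5 with signature sets of 50 genes a line, a minimum level of 20, a pseudocount of 0.1 or 2 other scalings (total reads, reference genes). Under those settings 5.71% to 8.82% of all pairs departed. No paired analysis was possible because every group holds 1 library.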

Other observations

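In 2 genes of the wider lists the low values stand beside an overlapping gene model. SRXN1, the sulfiredoxin that repairs overoxidised peroxiredoxins and a classical NRF2 target, had at most 0.0764 normalised CPM in a pure line, and GENCODE places another coding gene over 2292 of its exon bases on the same strand. TXNDC5, a thioredoxin-domain protein of the endoplasmic reticulum, had at most 0.520 and shares 2658 exon bases with a read-through gene. Whether reads in shared exons were dropped was not tested, and neither gene is counted as absent here.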
